A study of Arabidopsis thaliana with 28 samples.

Results

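Overexpression of CRF3 (cytokinin response factor 3, locus AT5G53290) was compared with wild type in Arabidopsis thaliana at 22°C, using 2 arrays of CRF3 overexpressors and 2 wild-type (WT) arrays among the 28 arrays of the series. The CRF3 arrays were those whose source label gives CRF3 overexpression, and the WT arrays were those labelled as the Col-0 control for the transgenic lines. The series holds 14 groups of 2 arrays each, namely 11 lines that overexpress a transcription factor, this WT control, and WT plants at 4°C and at 22°C from a separate cold experiment. All CRF3 and WT plants were grown for 12 days at 22°C in constant light on sucrose-free agar, and RNA came from the whole aerial part. The promoter behind the transgene, the number of independent lines and the number of plants behind an array are not given in the sources used here, so each line may be 1 clone.

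Cytokinin response factors are transcription factors of the AP2/ERF family. The founding members of the family were found as genes induced by cytokinin, a hormone that signals through a chain of histidine kinases, phosphotransfer proteins and response regulators, and they act beside the type-B response regulators. In shoots, cytokinin is known for its part in cell division, leaf growth, chloroplast development and the delay of senescence. The comparison asks what a high level of 1 such factor does to the shoot transcriptome without cold.

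The locus AT5G53290 was named on 0 probe sets of the platform annotation used here, so the transgene could not be checked by name. One probe set with no gene name, 248253_at, stood far above every other. Its log2 signal was 9.15 and 11.53 in the CRF3 arrays, against 2.26 and 2.66 in the WT arrays. The other 26 arrays of the series lay between 2.16 and 3.72, so both CRF3 arrays were clear of all of them. The difference was 7.88 ± 0.502 (SE, log2) with an adjusted p of 1.82e-08 in limma, and this probe set rose. The WT signals lie close to the floor of the table, 2.13, so the size of the difference depends on that floor. Tests were limited to probe sets over log2 4 in at least 2 arrays, and this one met that limit through the 2 CRF3 arrays alone. Which gene this probe set measures is not given in the files used here.

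The 2 CRF3 arrays differed from each other more than any other pair of replicates. Over the 15916 probe sets tested, 3984 differed by 1 or more on the log2 scale (2-fold) between the CRF3 replicates, against 22 between the WT control replicates and 22 to 948 in the 13 other pairs. Pearson's r between the CRF3 replicates was 0.883, and it was 0.962 to 0.992 in the 13 other pairs. CRF3 replicate 2 had a slightly higher r with RAV1 replicate 1 (0.887) and CRF2 replicate 2 (0.886), and a lower one with every other array. CRF3 replicate 1 had r = 0.982 and 0.983 with the WT control arrays. Across probe sets the root mean square SD within the pair was 0.707 in CRF3 and 0.181 in the WT control. The array medians were close, at 5.45 and 5.33 in CRF3 and 5.42 and 5.435 in WT.

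A probe set was called moved in an array where it lay at least 1 (log2) from the mean of the 2 WT control arrays and outside both of them. By that measure 201 probe sets moved in CRF3 replicate 1, of which 140 were higher (0.88% of those tested) and 61 lower (0.383%). In CRF3 replicate 2 the number was 4472, of which 1910 were higher (12%) and 2562 lower (16.1%). The 18 arrays of the 9 other lines on the same scale had 72 to 2154 such probe sets, with a median of 563.5. Replicate 1 therefore lay within the range of the other lines and replicate 2 above it. The 4 arrays of the cold experiment and the 2 of the CZF1 line are on another scale and were left out of that range. Their median difference from the WT control mean over the probe sets tested was 0.35 to 0.435.

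**Figure D1:**
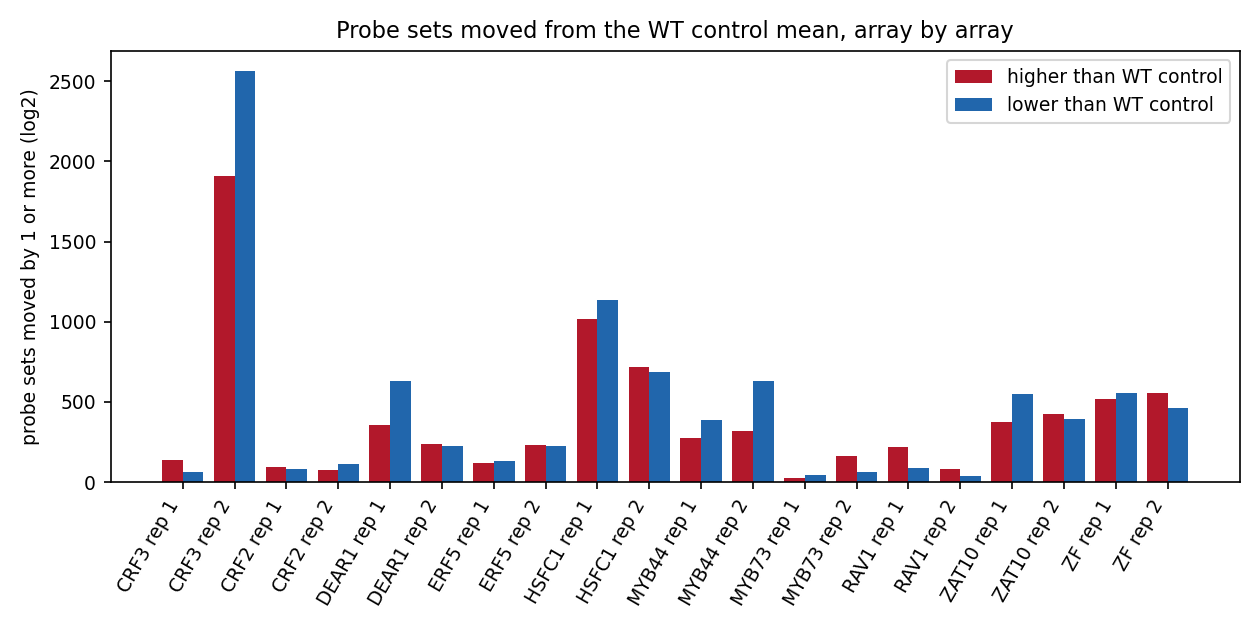
Number of probe sets (vertical axis) at least 1 log2 unit above (red) or below (blue) the WT control mean and outside both WT control arrays, for each array of CRF3 and of 9 other lines on the same scale. CRF3 replicate 2 has 1910 higher and 2562 lower probe sets, and CRF3 replicate 1 has 140 and 61.

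With the spread of each group taken into account, 1 of 15916 probe sets passed an adjusted p of 0.05 in limma (0.00628%), the probe set 248253_at. That probe set was among those tested only because of its signal in the CRF3 arrays. At an unadjusted p under 0.05 there were 1603 (10.1%). When all groups were given 1 common spread, 1368 probe sets passed (8.6%), 921 higher (5.79%) and 447 lower (2.81%). That fit takes the CRF3 arrays to vary like the rest of the series, which their own SD exceeds. A limma fit to the 4 arrays alone gave 0 calls, with 1027 at an unadjusted p under 0.05, and an adjusted p of 0.637 for 248253_at. Leaving out CRF3 replicate 1 gave 494 calls (3.1%), 182 higher (1.14%) and 312 lower (1.96%), and leaving out replicate 2 gave 1 call (0.00628%), each with the lone array assumed to vary as the group did. The genes described below are given by their values in each array, since none of them passed the adjusted threshold with group spreads.

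Among the probe sets tested, 81 were higher in both CRF3 arrays (0.509%) and 32 were lower in both (0.201%). The 81 make up 57.9% of those higher in replicate 1 and 4.24% of those higher in replicate 2, and the 32 make up 52.5% and 1.25% of the lower ones. A further 3431 moved in replicate 2 with replicate 1 within 0.5 of the WT mean, and these were 76.7% of all that moved in replicate 2. Of them 1276 were higher (8.02%) and 2155 lower (13.5%). The reverse case, moved in replicate 1 only, held 26 higher (0.163%) and 15 lower probe sets (0.0942%). Another 9 moved in opposite directions, and 919 moved in replicate 2 with replicate 1 between 0.5 and the threshold or not outside both WT arrays. With no minimum size, both CRF3 arrays lay above both WT arrays for 4096 probe sets (25.7%) and below both for 3080 (19.4%). These classes were made from the values themselves and carry no test.

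The balance of higher and lower members in the class moved in both arrays depended on the scaling. It was 81 to 32 with the deposited values (71.7% higher) and 46 to 51 after quantile normalization (47.4% higher). The median difference of replicate 1 from WT over all probe sets was 0.055 with the deposited values and 0.00 after quantile normalization. Of the 81 higher probe sets, 43 stayed in the class under that normalization, and so did all 32 lower ones, beside further lower ones that entered it. The 12 highest-ranked named genes on each side, which lie farthest from the threshold, were among those that stayed.

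**Figure D2:**
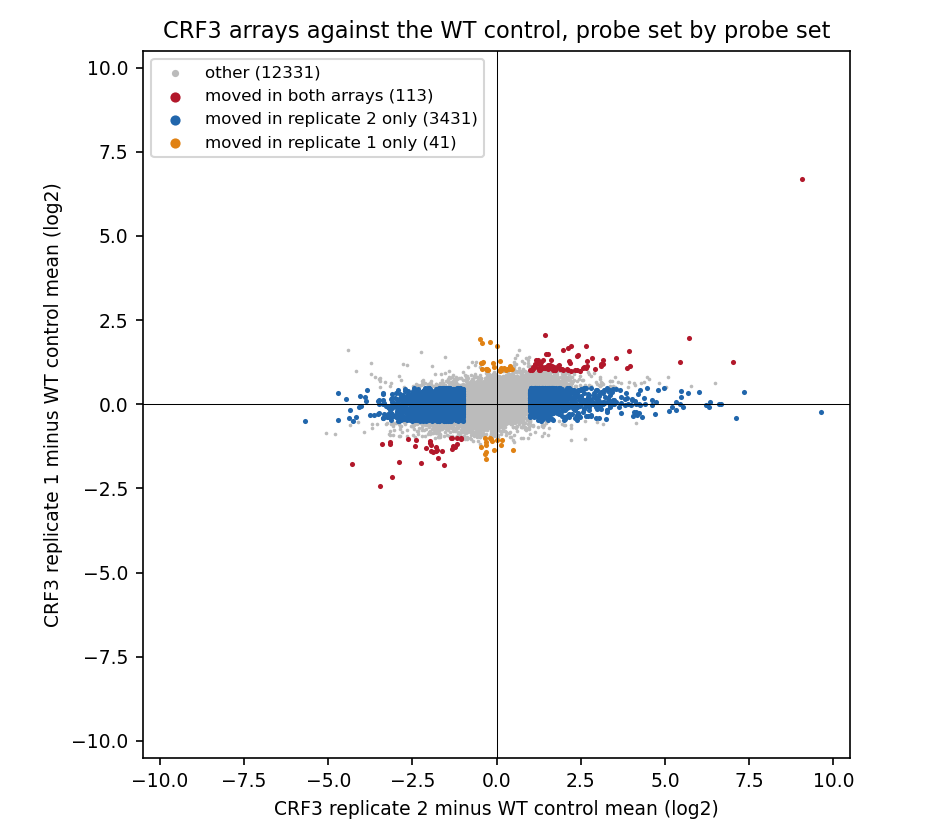
Difference of each probe set from the WT control mean in CRF3 replicate 2 (horizontal axis, log2) and CRF3 replicate 1 (vertical axis, log2), on equal scales. The cloud is wide along replicate 2 and narrow along replicate 1, the 113 probe sets moved in both arrays (red) are few beside the 3431 moved in replicate 2 only (blue), and 248253_at lies alone at the upper right.

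Within the 113 probe sets moved in both arrays, 101 lay farther from WT in replicate 2 than in replicate 1. The median distance from WT was 1.15 in replicate 1 and 1.81 in replicate 2. The 2 differences were within 0.25 of each other for 31 probe sets and at least 1 apart for 34. At the threshold itself, AT5G61310 was just inside with differences of 1.00 and 2.48, and AT1G32580 just outside with 0.99 and 1.55. On the lower side AT4G38690 was inside with −1.025 and −2.635, and EXO outside with −1.01 and −0.99.

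Of the 81 higher probe sets, 48 represent a named gene. AT4G33720 encodes a secreted CAP-domain protein of the PR-1 type, a family with members that accumulate in defence. Its log2 signal was 7.13 and 10.86 in CRF3 and 5.29 and 5.03 in WT. The difference was 3.84 ± 2.52 (SE), with an adjusted p of 0.645, and the other lines ranged from 2.36 to 11.55. The groups did not overlap, but the CRF3 replicates stood far apart, and the other lines spread even wider.

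The next ranked gene was AT1G53030, a COX17-type copper chaperone that supplies cytochrome c oxidase. It was at 6.93 and 7.84 in CRF3, against 5.46 and 4.92 in WT (difference 2.20 ± 0.849, SE; adjusted p = 0.418). AT5G39850, a protein of the small ribosomal subunit and the following gene in the ranking, was at 6.96 and 9.32 in CRF3, against 5.10 and 5.68 in WT (difference 2.75 ± 0.757; adjusted p = 0.398). Further down, AT5G09380, a subunit of RNA polymerase III, was at 6.17 and 8.01 in CRF3, against 4.94 and 4.78 in WT (difference 2.23 ± 0.439; adjusted p = 0.398). For these genes both CRF3 arrays lay above both WT arrays, with replicate 2 the higher.

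A few genes were moved by nearly the same amount in both CRF3 arrays. AT2G18740, an Sm protein of the spliceosome, was at 8.90 and 8.97 in CRF3, against 7.60 and 7.59 in WT, a difference of 1.34 ± 0.547 (SE; adjusted p = 0.431). AT5G15320 was at 8.08 and 8.07 in CRF3, against 6.50 and 6.70 in WT, and AT5G14105 at 7.89 and 7.92, against 6.07 and 6.70. AT3G63090 was at 4.93 and 5.24 in CRF3, against 3.55 and 3.69 in WT. In these genes the replicates of each group were closer to each other than the groups were. The other lines ranged from 7.33 to 8.57 for AT2G18740 and from 6.66 to 7.47 for AT5G14105. They ranged from 6.73 to 7.72 for AT5G15320 and from 4.11 to 5.15 for AT3G63090. For AT5G15320 and AT3G63090 both WT arrays lay below every array of the other lines, so the WT control itself stood apart there.

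The rest of the 12 highest-ranked genes were ATG8G, DI21, AT2G41780 and AT1G29020. ATG8G, one of the ubiquitin-like proteins that coat the autophagosome membrane, was at 6.28 and 7.13 in CRF3, against 5.29 and 4.67 in WT (difference 1.73 ± 0.507, SE; adjusted p = 0.398). DI21, a drought-induced protein, was at 11.67 and 13.07 in CRF3, against 10.15 and 10.64 in WT. AT2G41780 was at 4.89 and 5.85, against 3.42 and 3.52 in WT, and AT1G29020 at 4.34 and 5.80, against 2.97 and 2.99 in WT. The other lines reached 6.94 for AT1G29020, above both CRF3 arrays. The groups did not overlap for any of these 12 genes, which is how the class was chosen.

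A further 5 members of the class were picked out after their values had been seen, and they stand for no group of genes. AT5G28060, a ribosomal protein of the S24 family, was at 11.72 and 12.40 in CRF3, against 10.77 and 10.41 in WT. AT5G56710, of the L31 family, was at 12.18 and 12.20, against 10.63 and 11.29 in WT, and AT2G27720, an acidic protein of the large subunit, at 11.93 and 12.18, against 10.86 and 10.98. Cytochrome c oxidase subunits AT5G61310 and AT4G21105 were at 9.24 and 10.72, and at 11.10 and 11.79, in CRF3, against 8.12 and 8.36, and 9.96 and 10.16, in WT. These transcripts were abundant in WT already, and their CRF3 arrays stood 1.00 to 2.48 above the WT mean.

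CHI, a chitinase of the kind that attacks fungal walls, belonged to the class with very unequal replicates. Its signal was 4.91 and 10.68 in CRF3, against 3.77 and 3.56 in WT. OSM34, an osmotin-like protein related to the thaumatins and picked out after its values were seen, was at 9.82 and 11.77 in CRF3, against 8.61 and 8.73 in WT.

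Of the 32 lower probe sets, 16 represent a named gene, and 6 of those are encoded by the chloroplast genome. psbD, which codes for the D2 protein of photosystem II, was at 7.71 and 6.54 in CRF3, against 8.93 and 8.99 in WT (difference −1.84 ± 0.701, SE; adjusted p = 0.416). psbB, which codes for its CP47 antenna protein, was at 7.08 and 4.87 in CRF3, against 8.63 and 7.90 in WT (difference −2.29 ± 0.828; adjusted p = 0.398). The WT arrays differed for psbB as well, though by less than the CRF3 replicates.

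The other chloroplast genes of the class code for electron carriers and lipid synthesis. ndhE and ndhH, subunits of the NADH dehydrogenase-like complex of thylakoids, were at 6.71 and 6.23, and at 4.79 and 4.05, in CRF3, against 8.11 and 8.14, and 6.12 and 5.88, in WT. petN, a small subunit of the cytochrome b6f complex, was at 6.38 and 5.99 in CRF3, against 8.13 and 7.42 in WT. accD, a subunit of the plastid acetyl-CoA carboxylase, was at 7.19 and 5.87 in CRF3, against 8.24 and 8.27 in WT. Adjusted p-values for these 6 genes ran from 0.398 to 0.582 in limma. The other lines ranged from 7.06 to 8.73 for psbD, 6.39 to 8.20 for psbB and 6.54 to 8.12 for ndhE. They ranged from 4.64 to 6.10 for ndhH, 6.63 to 8.04 for petN and 5.81 to 8.46 for accD. For all but petN an array of another line lay below CRF3 replicate 1, and for accD below both CRF3 arrays. That array was a CRF2 array for psbD, psbB and ndhH. For psbD both WT arrays lay above all other lines.

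Among the nuclear genes lower in both arrays, AT1G62510, a protein of the lipid-transfer and seed-albumin family, was the farthest from WT. It was at 5.95 and 3.43 in CRF3, against 7.73 and 7.73 in WT (difference −3.04 ± 0.652, SE; adjusted p = 0.398). BZIP34, a bZIP transcription factor, was at 4.21 and 4.07 in CRF3, against 5.72 and 5.89 in WT (difference −1.67 ± 0.537; adjusted p = 0.398). ACT11, an actin of growing and reproductive tissue, was at 7.40 and 5.35 in CRF3, against 8.61 and 8.44 in WT (difference −2.15 ± 0.446; adjusted p = 0.398). BZIP34 was even between the CRF3 replicates, whereas ACT11 and AT1G62510 were lower in replicate 2 by over 2 log2 units. The other lines ranged from 4.16 to 5.45 for BZIP34, 6.66 to 8.41 for ACT11 and 6.04 to 10.64 for AT1G62510. For BZIP34 and ACT11 both WT arrays thus lay above every array of the other lines. The lowest of those arrays for BZIP34 was also below CRF3 replicate 1.

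The remaining ranked members were AT4G16563, an aspartyl protease, AT5G18430, a GDSL-type lipase, AT5G55380, an acyltransferase of the wax synthase type, and AT5G03120. AT4G16563 was at 4.42 and 3.88 in CRF3, against 5.71 and 5.93 in WT. AT5G18430 was at 3.66 and 3.65, against 4.92 and 5.04 in WT, and AT5G55380 at 4.52 and 3.99, against 5.78 and 5.81 in WT. AT5G03120 was at 4.66 and 2.67 in CRF3, against 5.78 and 5.87 in WT. These signals are low, and those under about 4 approach the floor of the table.

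**Figure D3:**
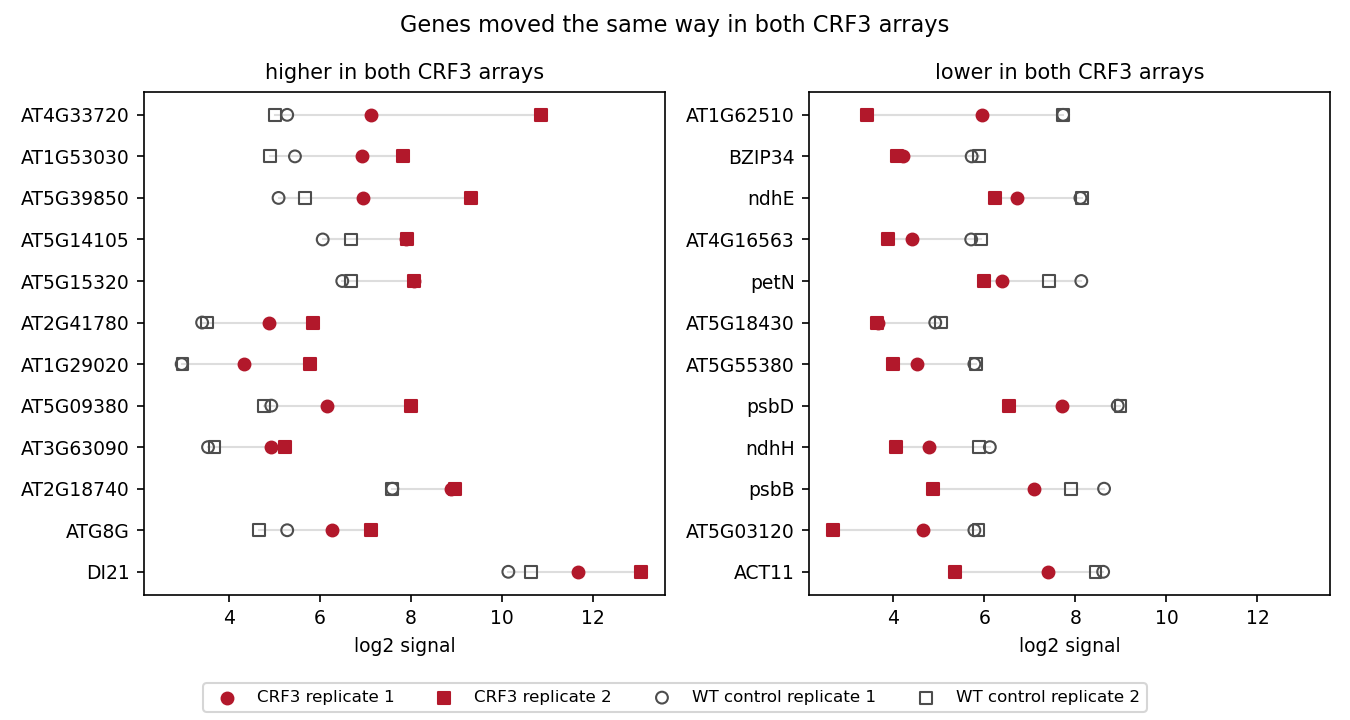
Log2 signal (horizontal axis) of the 12 highest-ranked genes higher (left) and lower (right) in both CRF3 arrays, with a filled symbol for each CRF3 array and an open symbol for each WT control array. Replicate 2 (squares) lies farther from WT than replicate 1 (circles) for most genes, and genes such as AT2G18740, AT5G15320 and BZIP34 have both CRF3 symbols nearly together.

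The genes moved in CRF3 replicate 2 only included defence-related genes with large differences. GRX480, a glutaredoxin that binds TGA transcription factors in the salicylic acid response, was at 3.49 and 7.97 in CRF3, against 3.36 and 3.36 in WT. AT1G72900, which carries a TIR domain like that of disease resistance proteins, was at 4.27 and 8.95 in CRF3, against 4.33 and 4.08 in WT. AT1G51890, a leucine-rich repeat receptor kinase, was at 3.43 and 7.56 in CRF3, against 3.40 and 3.43 in WT. In each, replicate 1 lay at the WT level and replicate 2 over 4 log2 units above it.

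The farthest of the ranked genes was AT3G18250, at 3.27 and 8.52 in CRF3, against 3.27 and 2.82 in WT. AT1G68620, a carboxylesterase-type hydrolase, was at 3.36 and 8.65, against 3.47 and 3.39 in WT, and AT5G39520 at 2.95 and 7.44, against 2.45 and 2.49. AT5G05600, an oxygenase that inactivates jasmonate, was at 4.36 and 8.17 in CRF3, against 3.96 and 3.89 in WT. AT2G18690, AT3G60420 and AT3G51660 completed the 10, with replicate 2 between 4.19 and 4.48 above WT and replicate 1 between 0.00 and 0.47 above it. For AT3G51660 the other lines reached 8.65, above CRF3 replicate 2 at 7.91. For the rest of the 10 no array of another line was above replicate 2. An unnamed probe set outside that ranking, 266385_at, was picked out after its values had been seen: it was at 3.69 and 13.56 in CRF3, against 3.88 and 3.98 in WT, while the other lines ranged from 3.83 to 9.44.

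On the lower side, replicate 2 had low signals for genes of chloroplast function, cell walls and pigment. NdhN, a nuclear-encoded subunit of the thylakoid NADH dehydrogenase-like complex, was at 8.43 and 5.19 in CRF3, against 8.61 and 8.82 in WT. AT2G34620, an mTERF protein of the kind that regulates organelle transcripts, was at 9.29 and 5.27 in CRF3, against 9.39 and 9.34 in WT. A pair of pectin-related genes behaved alike, with AT1G60590, a polygalacturonase-like protein, at 7.75 and 3.57, against 8.17 and 7.68 in WT, and AT1G23205, an inhibitor of pectin methylesterases, at 6.93 and 3.12, against 7.01 and 7.60.

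AT4G14090, a glucosyltransferase that decorates anthocyanins, was at 7.60 and 3.64 in CRF3, against 7.53 and 7.78 in WT. AT1G22690, of the gibberellin-regulated GASA family, was at 9.32 and 5.02, against 8.93 and 9.24 in WT. AT1G13650 had the largest lower difference of the ranked genes, at 7.13 and 2.87 in CRF3, against 7.49 and 7.68 in WT. AT4G33560, AT3G48460 and AT2G19970 completed the 10, with replicate 2 between 3.51 and 3.89 below WT. Replicate 1 of every gene in these rankings lay within 0.5 of WT, as the class requires. Of the 10 genes on each side, 9 stayed in the class after quantile normalization.

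**Figure D4:**
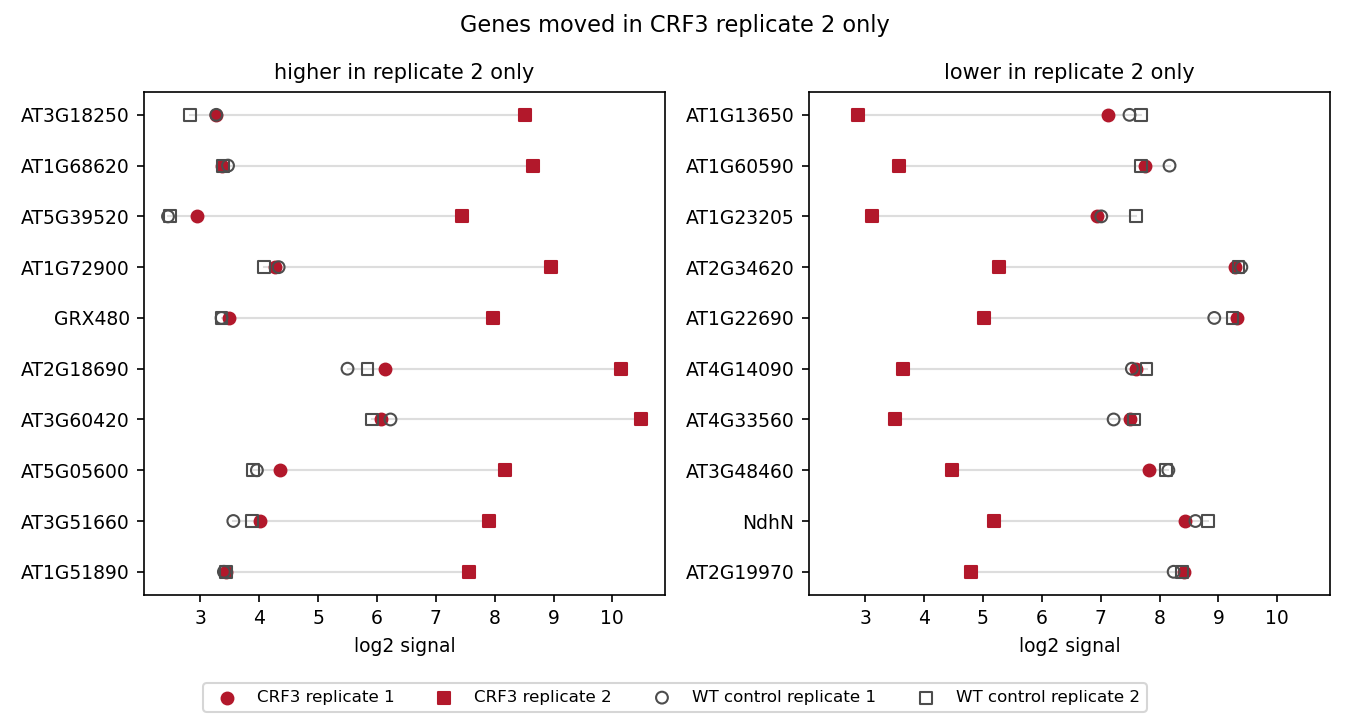
Log2 signal (horizontal axis) of the 10 highest-ranked genes higher (left) and lower (right) in CRF3 replicate 2 only, drawn as in the plot of genes moved in both arrays. The replicate 1 circle lies within 0.5 of the WT mean in each row, and the replicate 2 square lies 3.51 to 5.48 log2 units away from the WT mean.

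Few genes moved in replicate 1 only. ICL, isocitrate lyase of the glyoxylate cycle, was at 6.96 and 5.77 in CRF3, against 5.67 and 5.68 in WT. AT3G12900, a hydroxylase of coumarin synthesis, was at 4.41 and 2.69, against 2.67 and 2.69 in WT. AT5G57760 and AT3G54580, the second an extensin-like wall protein, were 1.86 and 1.24 above WT in replicate 1 and at −0.20 and −0.475 from it in replicate 2. AT3G20900, AT5G25750, AT1G64590 and AT1G76230 were 1.05 to 1.48 below WT in replicate 1 and between −0.35 and 0.475 from it in replicate 2.

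Gene groups were then read array by array. Each list below is described by the number of members that moved and by its median difference from WT, beside the same for all 8683 named genes, of which 12.2% were moved higher and 15.2% lower in replicate 2, with medians of 0.06 in replicate 1 and −0.01 in replicate 2. No member of any list passed the adjusted threshold with group spreads. In whole shoots, fewer cells of a type and less RNA per cell cannot be told apart.

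Photosynthesis genes were low in replicate 2. Of 66 chloroplast-encoded genes, 41 moved lower (62.1%) and 0 higher in replicate 2, with 6 lower in both arrays. Their median difference was −0.17 in replicate 1 and −1.36 in replicate 2, and the medians of the 18 arrays of other lines ran from −0.505 to 0.255. Besides psbB, the farthest were ycf4, a photosystem I assembly factor, at 5.86 and 3.92 in CRF3, against 7.06 and 6.55 in WT, and ndhK, an NADH dehydrogenase-like subunit, at 8.93 and 6.51, against 9.77 and 9.39. Only psbM and rpl32, noticed after their values were seen, moved higher in an array, and that was replicate 1. Their differences there, 1.00 and 1.05, were close to the threshold, and after quantile normalization they no longer counted as moved. psbM was at 13.21 and 12.30 in CRF3, against 12.14 and 12.28 in WT, and rpl32 at 11.69 and 11.03, against 10.47 and 10.81.

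Nuclear genes of the photosystems, the NADH dehydrogenase-like complex and the Calvin cycle were likewise low in replicate 2. Of a list of 29 nuclear photosynthesis genes 5 were tested, and 4 of them moved lower in replicate 2 (80.0%), with medians of −0.005 in replicate 1 and −1.35 in replicate 2, against −0.77 to 0.19 in the other lines. In a wider list, made after its values had been seen and sharing 4 of those 5 genes, 15 of 17 genes moved lower (88.2%) and 0 higher, with a median of −0.10 in replicate 1 and −1.99 in replicate 2, against −0.555 to 0.23 in the other lines. LHCB4.2, an antenna protein of photosystem II, was at 12.77 and 10.32 in CRF3, against 13.16 and 13.06 in WT, and LHCB4.3 at 8.82 and 6.36, against 8.67 and 8.97. PRK, phosphoribulokinase of the Calvin cycle, was at 11.80 and 10.10, against 12.11 and 12.21 in WT. Replicate 1 was near WT for each of them. RCA, the rubisco activase and a leaf marker, was at 14.10 and 13.18 in CRF3, against 13.97 and 14.24 in WT, and did not meet the threshold for moved.

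Of 7 genes of tetrapyrrole and chlorophyll synthesis, 5 moved lower in replicate 2 (71.4%), with medians of −0.08 and −1.35 in replicates 1 and 2. HEME1, a uroporphyrinogen decarboxylase, was at 8.10 and 7.06 in CRF3, against 8.80 and 8.92 in WT. CHLM, the methyltransferase of magnesium protoporphyrin, was at 11.21 and 9.14, against 11.26 and 11.35 in WT.

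Genes of cell expansion showed low values in replicate 2 as well. All 7 tubulins tested moved lower in it, with medians of −0.13 in replicate 1 and −1.24 in replicate 2, against −0.60 to −0.015 in the other lines. TUB1, a beta-tubulin, was at 6.52 and 4.56 in CRF3, against 6.75 and 6.81 in WT, and TUA1, an alpha-tubulin, at 6.74 and 6.49, against 7.63 and 7.77. TUA1 was thus low in both CRF3 arrays, though in replicate 1 by less than 1.

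Expansins and xyloglucan hydrolases loosen the wall as cells grow. Of 22 tested, 12 moved lower (54.5%) and 0 higher in replicate 2, with medians of 0.00 in replicate 1 and −1.11 in replicate 2. EXPB3 was at 8.76 and 5.64 in CRF3, against 9.32 and 9.35 in WT, and EXPB1 at 4.43 and 2.71, against 5.33 and 5.41. EXLA1 was at 7.80 and 6.62, against 8.46 and 9.05 in WT, and EXPA4 at 9.56 and 6.51, against 9.59 and 9.51. For EXPB3, EXPB1 and EXLA1 replicate 1 also lay below both WT arrays, by less than 1 log2 unit from the WT mean. The same direction was seen for 11 of 22 endoglucanases of family GH9 and TBL wall proteins (50.0%), with medians of 0.08 and −0.92. GH9B13 was at 9.27 and 5.91 in CRF3, against 9.40 and 9.15 in WT, and GH9C2 at 8.45 and 5.61, against 8.39 and 8.36.

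Pigment and cold genes were also low in replicate 2, but other lines reached similar values. Of 5 flavonoid and anthocyanin genes, 4 moved lower, with medians of −0.06 in replicate 1 and −3.13 in replicate 2, against −3.20 to 0.27 in the other lines. DFR, the dihydroflavonol reductase, was at 9.32 and 5.34 in CRF3, against 8.92 and 8.39 in WT, and UF3GT, an anthocyanin glycosyltransferase, at 7.77 and 4.02, against 7.46 and 6.84. UGT78D2 was at 9.08 and 7.47, against 9.38 and 9.23 in WT, and AT5MAT, the member that did not move, at 5.98 and 6.04, against 6.14 and 5.98. DFR and UF3GT were slightly above both WT arrays in replicate 1.

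Of 4 genes of the CBF regulon, the cold-acclimation targets of the CBF factors, 3 moved lower in replicate 2, with medians of 0.07 and −1.64, and the medians of other lines ran from −1.54 to 2.02. COR47, a dehydrin, was at 9.71 and 7.05 in CRF3, against 9.84 and 10.01 in WT. COR15A and COR15B, which protect chloroplast membranes in freezing, were at 7.35 and 5.21, and at 7.97 and 5.81, in CRF3, against 7.26 and 6.81, and 7.35 and 7.17, in WT. LTI30, also a dehydrin, was at 7.98 and 7.50, against 8.18 and 8.14, and did not move.

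Sugar transporters of the SWEET family had 4 of 9 members lower in replicate 2 (44.4%) and 0 higher, with medians of −0.04 and −0.99, against −0.44 to 0.195 in the other lines. SWEET2 was at 6.26 and 5.23 in CRF3, against 6.79 and 6.92 in WT, and SWEET13 at 5.95 and 3.28, against 5.55 and 5.77. Of 11 glutathione transferases, 3 moved lower in replicate 2 and 0 higher, with medians of 0.09 and −0.62.

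The ATG8 genes of autophagy were the list with the highest median in both CRF3 arrays among those with more than 5 members tested. Of 9 members, 5 moved higher in replicate 2 (55.6%) and 0 lower, with ATG8G higher in both arrays. The median difference was 0.475 in replicate 1 and 1.18 in replicate 2, against −0.145 to 0.78 in the arrays of other lines, so replicate 1 lay inside that range and replicate 2 outside it. ATG8B was at 6.62 and 9.70 in CRF3, against 6.19 and 6.13 in WT, APG8A at 7.74 and 9.39, against 7.34 and 7.15, and ATG8D at 7.23 and 7.99, against 6.73 and 6.70. Both CRF3 arrays were above both WT arrays for all 4 of these genes.

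Of 11 RNA polymerase subunits, 6 moved higher in replicate 2 (54.5%) and 0 lower, with medians of 0.26 in replicate 1 and 1.08 in replicate 2, against 0.06 to 0.32 in the other lines. NRPD7 was at 4.35 and 5.95 in CRF3, against 3.75 and 4.15 in WT. NRPB12 was at 9.36 and 10.41, against 8.59 and 8.85 in WT, and NRPA2, a subunit of RNA polymerase I, at 7.68 and 9.16, against 7.17 and 7.39.

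Lists tied to defence and detoxification were mixed. Of 8 defensins and thionins, 3 moved higher and 2 lower in replicate 2, and PDF1.4 was at 2.82 and 5.86 in CRF3, against 2.90 and 2.90 in WT. Of 36 family 1 glycosyltransferases, 3 moved higher and 7 lower, with a median of −0.45 in replicate 2 against −0.19 to 0.085 in the other lines, and the member farthest above WT, UGT87A2, was at 5.66 and 8.43, against 5.71 and 5.59. Of 14 cytochrome P450 genes, 3 moved each way, and CYP71B6 was at 8.04 and 9.60, against 7.44 and 7.45 in WT. Of 4 WRKY factors, 2 moved higher, among them WRKY6, at 5.37 and 6.83 in CRF3, against 5.12 and 5.41 in WT. SAG101, a partner of EDS1 in immunity and the 1 tested gene of 14 in the salicylic acid list, was at 5.73 and 6.6, against 5.48 and 4.89. None of the 4 heat shock genes and none of the 5 histones moved in either CRF3 array. The heat shock genes AT1G53540 and ATHSP22.0 were at or near the floor of 2.13 in CRF3 and WT, so a fall could not be seen there.

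The genes of cytokinin signalling could be read only in small part. Of 10 type-A response regulators, which cytokinin induces, 2 were named on the array and neither moved. RR16 was at 6.81 and 6.62 in CRF3, against 5.97 and 6.23 in WT (difference 0.615 ± 0.715, SE; adjusted p = 0.862). ARR15 was at 5.30 and 4.60 in CRF3, against 4.96 and 4.82 in WT (difference 0.06 ± 0.485; adjusted p = 1.00). Both CRF3 arrays lay above WT for RR16, and the groups overlapped for ARR15.

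Of 28 cytokinin metabolism genes, 2 were named, both glucosyltransferases that inactivate cytokinin. UGT76C2 was at 5.81 and 4.98 in CRF3, against 6.18 and 6.25 in WT, and UGT76C1 at 5.12 and 4.47, against 5.17 and 5.40. UGT76C2 moved lower in replicate 2 only. The 9 cytokinin receptors and phosphotransfer proteins and the 8 cytokinin response factors had 0 members named on the array, so they were not analysed here.

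**Figure D5:**
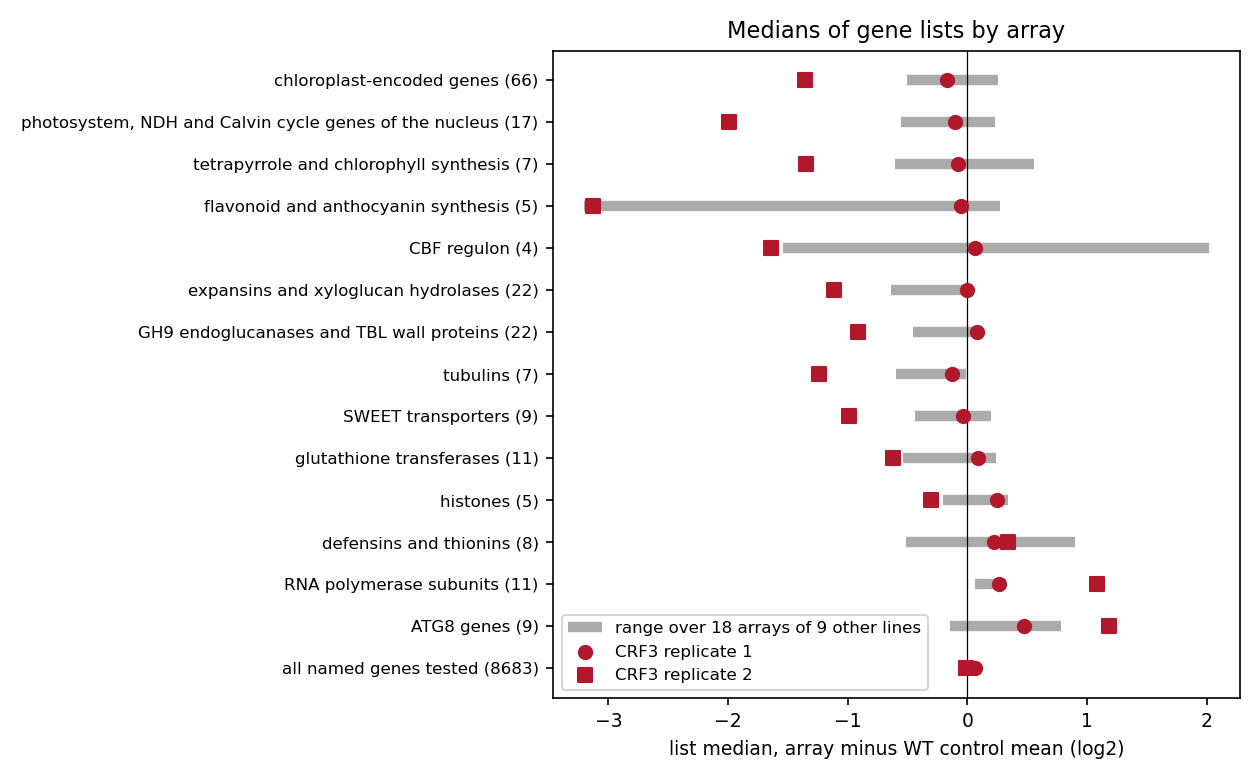
Median difference from the WT control mean (horizontal axis, log2) of each gene list in CRF3 replicate 1 (circle) and CRF3 replicate 2 (square), with the number of genes tested in brackets and a grey bar for the range of the 18 arrays of 9 other lines. Replicate 2 lies to the left of the bar for the chloroplast, photosystem, tetrapyrrole, tubulin, cell wall and SWEET lists, by less for the CBF regulon, glutathione transferases and histones, and to its right for RNA polymerase subunits and ATG8 genes, and replicate 1 lies inside or at the edge of the bars.

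The classes were also set against arrays that share no sample with them. In the cold experiment (4°C for 24 h against 22°C in WT), 19.5% of probe sets rose and 20.9% fell in limma. The 4°C plants were also kept in weaker light than the 22°C plants. Temperature and light therefore cannot be told apart in what is called cold here. Of the 81 probe sets higher in both CRF3 arrays, 27 rose in the cold (33.3%) and 9 fell (11.1%), and of the 32 lower ones 3 rose (9.38%) and 8 fell (25%). Of the 1276 higher in replicate 2 only, 378 rose in the cold (29.6%) and 199 fell (15.6%). Of the 2155 lower in replicate 2 only, 228 rose (10.6%) and 793 fell (36.8%). The share of the 32 that fell is near that of all probe sets, and no difference of these shares from all probe sets was tested. Among the named lower genes, BZIP34 fell by 2.55 in the cold and AT1G13650 by 5.22, while AT4G16563 rose by 1.38. Over all probe sets, the difference between the CRF3 replicates and the cold difference had r = 0.187, a weak relation across genes measured on the same 4 libraries of cold and 22°C.

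When each CRF3 array was set against its own WT array, so that no array was shared, the differences of the 2 CRF3 replicates had r = 0.275 or 0.299 over the 15916 probe sets, depending on which WT array went with which. No such r was computed between CRF3 and other lines, so whether this relation is particular to CRF3 was not tested. Of the 81 higher probe sets, 58 stayed in the class with same-numbered pairs and 53 with crossed pairs, and of the 32 lower ones 24 and 28 stayed. Replicate 2 was beyond all 20 arrays of the other lines and the WT control for 1124 of the 1276 probe sets higher in it only (88.1%) and for 1741 of the 2155 lower ones (80.8%). Over all probe sets tested, replicate 2 was above all 20 for 3090 (19.4%) and below all 20 for 3416 (21.5%). Both CRF3 arrays were beyond all 20 for 36 of the 81 higher and 9 of the 32 lower in both, against 346 above (2.17%) and 99 below (0.622%) over all probe sets. The classes were chosen on the same values, which favours high shares, so they are given as a description.

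CRF2, the other cytokinin response factor overexpressed in the series, shares the WT control, so its values are given only side by side. Probe set 248253_at was at 2.65 and 2.45 in CRF2 overexpressors. AT5G39850 was at 6.21 and 7.15, AT5G15320 at 7.68 and 7.65, and psbB at 7.97 and 6.39 in CRF2 overexpressors. AT1G62510 was at 7.41 and 7.17, and BZIP34 at 4.97 and 5.12.

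Array controls and tissue markers moved with the CRF3 arrays in part. The signal difference between 3′ and 5′ probe sets of GAPDH was 2.04 and 1.81 in CRF3, against 0.75 and 0.91 in WT and 0.86 to 1.86 in the other lines. For actin it was 1.5 and 1.85, against 1.25 and 0.96 in WT and 0.82 to 1.81 in the other lines. The 25S rRNA probe set was at 9.98 and 11.47 in CRF3, against 10.23 and 10.13 in WT, within the 8.75 to 11.77 of the other lines. Of 8 root marker genes, 2 were named, with EXPA7 at 4.92 and 3.56 in CRF3, against 4.72 and 4.74 in WT, and EXPA18 at 5.57 and 4.31, against 5.30 and 5.66. LHCB4.1, a photosystem II antenna gene, was at 13.05 and 12.03 in CRF3, against 13.24 and 13.10 in WT. It was high in both groups, though lower in CRF3 replicate 2. These few genes do not show whether the tissue make-up of the groups matched. The part of these differences in the results above was not tested.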

How the data were processed

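Biotin-labelled shoot RNA was measured on arrays of 1 colour. The values are log2 signals as deposited by the authors, and the submitters' processing notes list GCRMA and limma with no version or role. From 22810 probe sets the 64 array controls were removed. Tests were limited to the 15916 probe sets with log2 values above 4 in 2 arrays or more. In the platform annotation 13513 probe sets have a single gene, 503 have several and 8730 are unnamed. The RefSeq table supplied symbols for 13436 of the 13513. Where a gene had several probe sets, the brightest on average stood for it.

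Group means of all 28 arrays were fitted with limma 3.58.1 in R 4.3.3 (lmFit, eBayes) with 1 variance weight per group, with Benjamini-Hochberg adjustment of the p-values. The variance factor was 6.52 for CRF3 and 0.495 for the WT control. On simulated data with the same spreads, the fit recovered 0% of changes of 1 log2 unit, 58.5% of changes of 2 and 98.5% of changes of 4. False calls numbered 0, 11 and 9, with 200 probe sets changed each time. The simulation set the same change in both CRF3 arrays, unlike the real pair, where replicate 2 lay much farther from WT. The precision is limited by 2 arrays a group, and the p-values measure only how far arrays labelled as biological replicates spread. The classes and lists were chosen with earlier results of these data known, and 4 lists (photosystem, tetrapyrrole, RNA polymerase, GH9 and TBL) were made after their values had been seen. Named genes are the 12 farthest on each side in both arrays (by the smaller difference), the 10 in replicate 2 only, the 4 in replicate 1 only, the probe set with the largest rise, and the list members with the largest mean differences. Alternatives were other weights, filters, quantile normalization, other WT controls, other sizes of move, a replicate block and leaving out each array. The difference between replicates 2 and 1 in CRF3 was nearly uncorrelated with that in the WT control (r = −0.0219). As the WT replicates hardly differed, this cannot show whether same-numbered samples were paired.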

Additional observations from a re-analysis of the deposited data

Results flagged for a closer look

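Some array control values of the CRF3 arrays lay above both WT arrays and above every array of the other lines compared. The difference between 3′ and 5′ signals was 2.04 (log2) for GAPDH in CRF3 replicate 1, against 0.75 and 0.91 in WT and at most 1.86 in the other lines. It was 1.85 for actin in CRF3 replicate 2, against 1.25 and 0.96 in WT and at most 1.81 in the other lines. It was 1.07 for ubiquitin in CRF3 replicate 1, against 0.47 and 0.62 in WT and at most 1.02 in the other lines, while CRF3 replicate 2 was at 0.42. The bacterial hybridisation controls bioB, bioC and bioD were high in CRF3 replicate 1. bioB was at 7.86 there and at 6.33 in CRF3 replicate 2, against 6.57 and 6.86 in WT and at most 7.46 in the other lines. bioC was at 9.96 and 8.85 in CRF3, against 9.21 and 9.65 in WT and at most 9.94, and bioD at 12.61 and 11.69 in CRF3, against 11.93 and 12.10 in WT and at most 12.47. The part of these values in the comparison was not tested.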

How the results depend on the processing

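Counts below are in the order higher, then lower. The count of calls with group spreads was 1. It was 1368 with equal weights, 4 without the filter, 722 against the WT of the cold experiment, 0 with the 4 arrays alone, and 1 to 494 when an array was left out. With the replicate number as a block it was 1 over all arrays and 0 in the 4 arrays, and whether the numbers pair the samples is not known. The adjusted p of 248253_at was 0.637 in the fit of 4 arrays and 0.699 with the block there, and at most 1.42e-05 under every other alternative run. Of the 101 genes and probe sets compared across settings, 46 passed with equal weights that do not with group spreads, 28 without CRF3 replicate 1 and 13 with the cold-experiment WT.

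In both arrays (81 and 32), the stricter filter at log2 6 left 21 lower, quantile normalization gave 46 and 51, and leaving out a WT array gave 88 to 129 and 49 to 56. The cold-experiment WT gave 309 and 987, all 4 WT arrays 44 and 89, a smaller size of move 651 and 291, and a 4-fold move 1 and 2. The pairings of CRF3 with WT arrays, added after seeing the data, gave 51 lower when crossed. In replicate 2 only (1276 and 2155), the range without a WT array was 1246 to 1271 and 2085 to 2196, the cold-experiment WT gave 735 higher, the smaller size 2606 and 3588, the 4-fold size 253 and 469, and a bound of 0.25 on replicate 1 693 and 1376. In replicate 1 only (26 and 15), values were 3 lower with the stricter filter, 17 higher after quantile normalization, 29 to 34 and 21 to 22 without a WT array, 89 and 135 with the cold-experiment WT, 29 lower with all 4 WT arrays, 288 and 154 and then 0 and 0 with the smaller and larger sizes, 45 and 33 with same-numbered pairs, 25 lower with crossed pairs, 10 and 7 with the bound at 0.25, and 52 and 27 with it at 1.

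Differences of single genes that changed sign were as follows. Against the cold-experiment WT they were −0.185 for AT5G15320, −0.38 for AT3G63090, −0.395 for AT2G18740, 0.49 for AT4G33560, 2.05 for AT5G25750, 1.24 for AT1G64590, 0.495 for AT1G76230, −0.305 for RR16, −0.94 for ARR15, 0.45 for EXPA7, 0.46 for EXPA18, −0.065 for rpl32, −0.335 for psbM, −0.13 for UGT87A2 and 0.84 for EXLA1. That WT is on another scale, with median differences of 0.415 and 0.42 from the WT control mean over the probe sets tested. Against the WT control the differences of AT5G15320, AT3G63090 and AT2G18740 were 1.475, 1.465 and 1.34. The shifts of these genes between the 2 WT groups were thus larger than that offset. Against all 4 WT arrays they were 0.80 for AT5G25750, 0.265 for AT1G64590 and −0.44 for ARR15. When an array was left out the difference ranged from −0.29 to 0.41 for ARR15, −4.065 to 0.235 for AT1G22690, −0.07 to 5.22 for AT1G68620, −1.05 to 0.02 for AT1G76230, −3.51 to 0.10 for AT2G19970, −0.475 to 1.235 for AT3G54580, −3.89 to 0.11 for AT4G33560, −1.365 to 0.475 for AT5G25750 and −0.20 to 1.86 for AT5G57760. It ranged from −0.13 to 0.03 for AT5MAT, −1.825 to 0.315 for COR15A, −1.45 to 0.71 for COR15B, −3.315 to 0.665 for DFR, −1.17 to 0.09 for EXPA18, −3.04 to 0.01 for EXPA4, −1.17 to 0.19 for EXPA7, −2.765 to 0.075 for GH9C2, −2.46 to 0.00 for LHCB4.3, −0.08 to 2.96 for PDF1.4, −2.38 to 0.29 for SWEET13 and −3.13 to 0.62 for UF3GT. The cause was not tested. Signals near the floor limit what the low genes can show.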

Other observations

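Probe sets without a single gene name held some of the widest differences, and they are given as values only, chosen after the values had been seen. Probe set 251625_at was at 3.5 and 10.47 in CRF3, against 3.07 and 3.18 in WT, with 3.04 to 8.27 in the other lines. Probe set 260623_at was at 8.41 and 3.20 in CRF3, against 8.64 and 9.16 in WT, with 3.24 to 10.33 in the other lines. Probe set 256994_s_at, which the annotation gives to 2 genes, was at 4.36 and 3.32 in CRF3, against 6.81 and 6.76 in WT. Of the probe sets moved in replicate 2 only, 253 of the 1276 higher and 469 of the 2155 lower differed from WT by at least 4-fold, and 42 and 11 by at least 16-fold.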
